A study of Mus musculus with 3 samples.

Results

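Small nucleolar RNAs (snoRNAs) and small Cajal body RNAs (scaRNAs) were examined in an RNA immunoprecipitation sequencing (RIP-seq) study of mouse embryonic stem cells. The set held each transcript that the deposited tables class as snoRNA, together with each transcript whose symbol begins with Scarna or SCARNA. It comprised 101 of the 13595 transcripts listed in either table. Of these, 62 were among the 9501 transcripts of the Mettl3 table and 73 among the 8120 of the Zfp217 table. By symbol, 29 were C/D box RNAs, 56 were H/ACA box RNAs, 7 were Cajal body RNAs, and 9 had other symbols.

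There were 3 libraries, all from CCE, a mouse embryonic stem cell line kept without feeder cells in medium with leukemia inhibitory factor and given no treatment. 1 was made from RNA precipitated with an antibody against Mettl3, the catalytic subunit of the m6A RNA methyltransferase. 1 was made with an antibody against Zfp217, a zinc finger protein, and 1 from the input, which served both antibodies. Nuclear lysate was used for the precipitations, so RNAs of the nucleolus and of Cajal bodies could be present in it. Each group had 1 library, so no replicate check and no p-value was possible, and no precipitation with an unrelated antibody was analysed here. Of 12 pluripotency markers looked up, 6 were listed, among them Sox2, Nanog and Pou5f1 at 42.7, 18.6 and 2.82 FPKM in the input. The others listed, Esrrb, Dppa4 and Klf4, were at 0.501, 0.0118 and 0.00299 FPKM. The tables list only transcripts higher in a RIP than in the input, so an unlisted marker has no value in them.

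C/D box RNAs pair with ribosomal RNA and direct the fibrillarin enzyme to methylate the ribose of a chosen nucleotide. H/ACA box RNAs direct the dyskerin enzyme to turn a chosen uridine into pseudouridine. Most are cut out of introns of host genes, many of which encode ribosomal proteins or translation factors. Cajal body RNAs carry the same kinds of box and direct the same reactions on the small nuclear RNAs of the spliceosome. Some C/D RNAs do other work, such as U3, which acts in the cleavage of the ribosomal RNA precursor.

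The sequences below belong to members described in detail further on, and they show how short these RNAs are and which box patterns they carry. They are given 5′ to 3′ as DNA letters from the GENCODE M21 transcripts (build GRCm38), matched by transcript identifier. Capitals mark TGATGA (the C box core) and CTGA in the last 12 bases (the D box) in the C/D RNAs, Scarna9, snoU2_19 and Scarna2. In the H/ACA RNAs and the other Cajal body RNAs they mark the ANANNA nearest the middle (the H box pattern) and ACA in the last 6 bases. In SCARNA20 and Scarna3a they also mark TGAG (the core of the box for Cajal bodies).
SNORD12, chr2:167064998-167065086, plus strand: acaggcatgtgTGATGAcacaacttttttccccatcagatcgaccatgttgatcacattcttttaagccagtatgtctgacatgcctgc
Snord35a, chr7:45126346-45126435, minus strand: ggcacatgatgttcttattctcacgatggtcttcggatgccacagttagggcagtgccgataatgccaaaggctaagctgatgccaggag
SNORD16, chr9:64176661-64176759, plus strand: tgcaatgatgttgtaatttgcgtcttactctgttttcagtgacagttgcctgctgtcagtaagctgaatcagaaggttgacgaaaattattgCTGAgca
SNORA51, chr2:130276237-130276369, plus strand: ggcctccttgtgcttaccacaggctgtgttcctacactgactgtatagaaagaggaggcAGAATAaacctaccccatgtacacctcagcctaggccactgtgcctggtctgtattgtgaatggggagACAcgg
SNORA84, chr16:52105015-52105147, minus strand: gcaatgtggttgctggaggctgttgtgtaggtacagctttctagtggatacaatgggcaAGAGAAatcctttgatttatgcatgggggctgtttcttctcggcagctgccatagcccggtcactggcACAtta
SNORA26, chr1:86087301-86087422, plus strand: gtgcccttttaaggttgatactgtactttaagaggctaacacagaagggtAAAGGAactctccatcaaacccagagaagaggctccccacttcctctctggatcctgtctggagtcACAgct
Snora28, chr12:111540941-111541067, plus strand: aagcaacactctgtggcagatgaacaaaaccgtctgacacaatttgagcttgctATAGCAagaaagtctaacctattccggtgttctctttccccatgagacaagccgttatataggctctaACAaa
SCARNA20, chr5:135053988-135054116, minus strand: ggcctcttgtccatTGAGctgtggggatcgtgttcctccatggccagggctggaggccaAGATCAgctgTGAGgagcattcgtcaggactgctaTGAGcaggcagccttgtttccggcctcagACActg
Scarna3a, chr1:159340283-159340422, plus strand: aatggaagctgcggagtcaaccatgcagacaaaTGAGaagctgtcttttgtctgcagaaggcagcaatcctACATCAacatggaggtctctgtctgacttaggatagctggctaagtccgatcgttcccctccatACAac
Scarna9, chr9:15326264-15326333, minus strand: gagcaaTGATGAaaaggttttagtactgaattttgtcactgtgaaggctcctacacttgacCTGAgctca
snoU2_19, chr9:15326464-15326539, minus strand: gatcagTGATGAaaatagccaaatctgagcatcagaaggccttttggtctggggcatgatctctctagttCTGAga
Scarna2, its last 150 bases, of chr3:108554338-108554751, minus strand: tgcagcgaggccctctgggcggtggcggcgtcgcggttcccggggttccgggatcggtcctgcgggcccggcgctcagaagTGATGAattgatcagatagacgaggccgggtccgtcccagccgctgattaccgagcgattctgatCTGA

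Levels in the tables are FPKM, fragment counts scaled by transcript length and by library depth. The values of these short RNAs came in whole multiples of a smallest step, the value of 1 sequenced fragment. That step fell with annotated length far more steeply than in proportion to it, so scaling by the annotated length alone does not give these values. In the Mettl3 RIP library 1 fragment was worth 858 FPKM for an RNA of 70 bases, 171 FPKM at 90 bases and 9.30 FPKM at 133 bases. For the same lengths the Zfp217 RIP library gave 1108, 229 and 12.9 FPKM. 1 fragment on an RNA of 70 bases thus gave a higher level in the Mettl3 RIP than the 41 fragments of SNORA51, which has 133 bases. When the step of a length was predicted from the other lengths alone, 91.8% of 147 low values in the Mettl3 RIP were whole fragments within 0.1. The share was 95.6% of 135 values in the Zfp217 RIP. For the input it was 89.3% of 28, but that prediction also used the Mettl3 step of the same length. Each level below is accordingly given with its estimated fragments, and each interval covers counting error only.

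**Figure D1:**
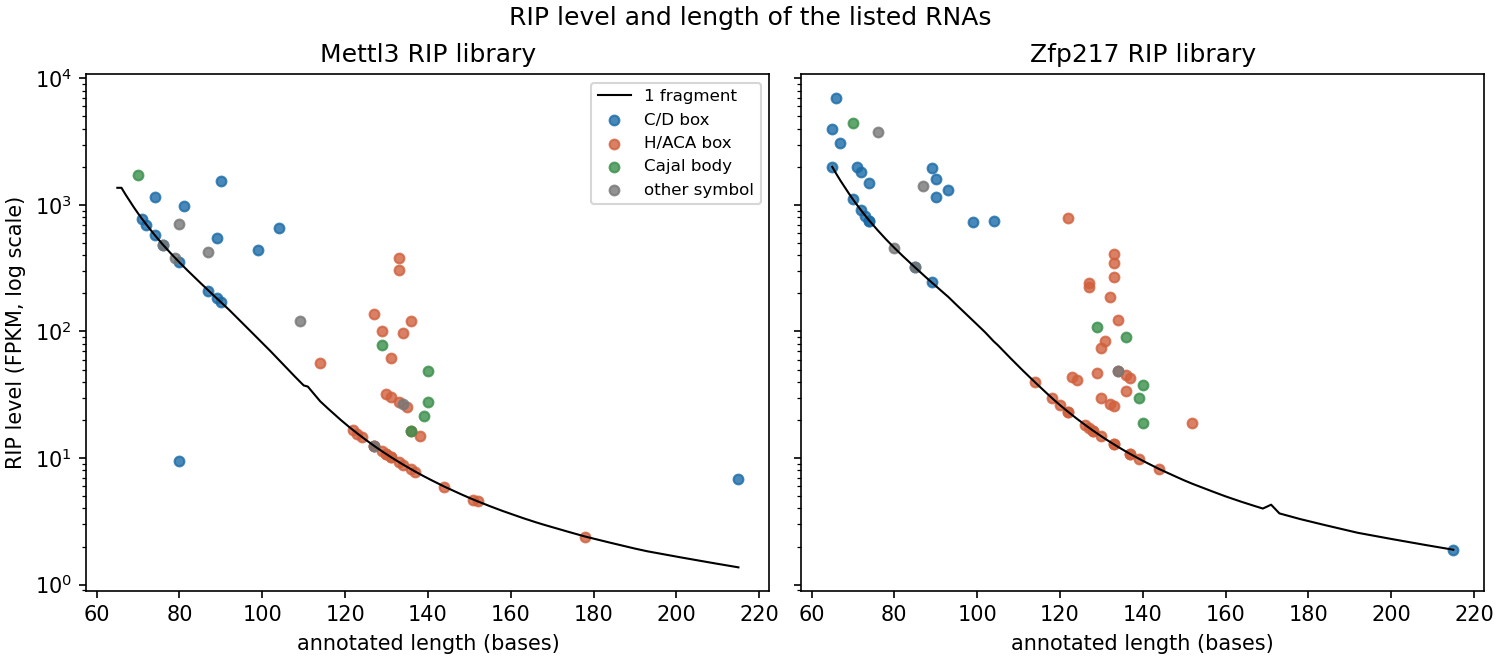
RIP level of each listed RNA (FPKM, log scale) against its annotated length in bases, by class, in the Mettl3 RIP (left) and the Zfp217 RIP (right), with the line showing the value of 1 fragment at each length. Many points lie on the line, and the line drops from 1365 FPKM at 66 bases to 6.91 FPKM at 140 bases in the Mettl3 RIP. Below 66 bases the Mettl3 line is held flat. The longer snoU90 and Scarna2 are not drawn, and Snord45c is the point far below the line.

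Listed C/D box RNAs stood at a median of 517 FPKM in the Mettl3 RIP and 1126 FPKM in the Zfp217 RIP. H/ACA box RNAs stood at medians of 15.0 and 31.8 FPKM, and Cajal body RNAs at 38.0 and 89.9 FPKM. In fragments this order was not seen. The median was 1 fragment for both C/D and H/ACA RNAs in the Mettl3 RIP and 2 for both in the Zfp217 RIP, while Cajal body RNAs had medians of 3.5 and 4. The C/D RNAs were 65 to 215 bases long with a median of 80, and the H/ACA RNAs were 114 to 178 bases long with a median of 132.

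A single fragment stood behind 29 of the 61 Mettl3 RIP values and 27 of the 71 Zfp217 RIP values whose length was known. At most 3 fragments stood behind 47 and 42 of them, and more than 10 behind 6 and 9. No Cajal body RNA rested on 1 fragment in either RIP. The members together held about 246 fragments in the Mettl3 RIP, of which C/D RNAs held 46, H/ACA RNAs 162 and Cajal body RNAs 25. They held about 1533 in the Zfp217 RIP, of which C/D RNAs held 65, H/ACA RNAs 223 and Cajal body RNAs 1041. Scarna2 alone made up 66.1% of the Zfp217 total, which was 520 fragments without it and 333 without Scarna2 and snoU90. Both of these are listed only for Zfp217.

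**Figure D2:**
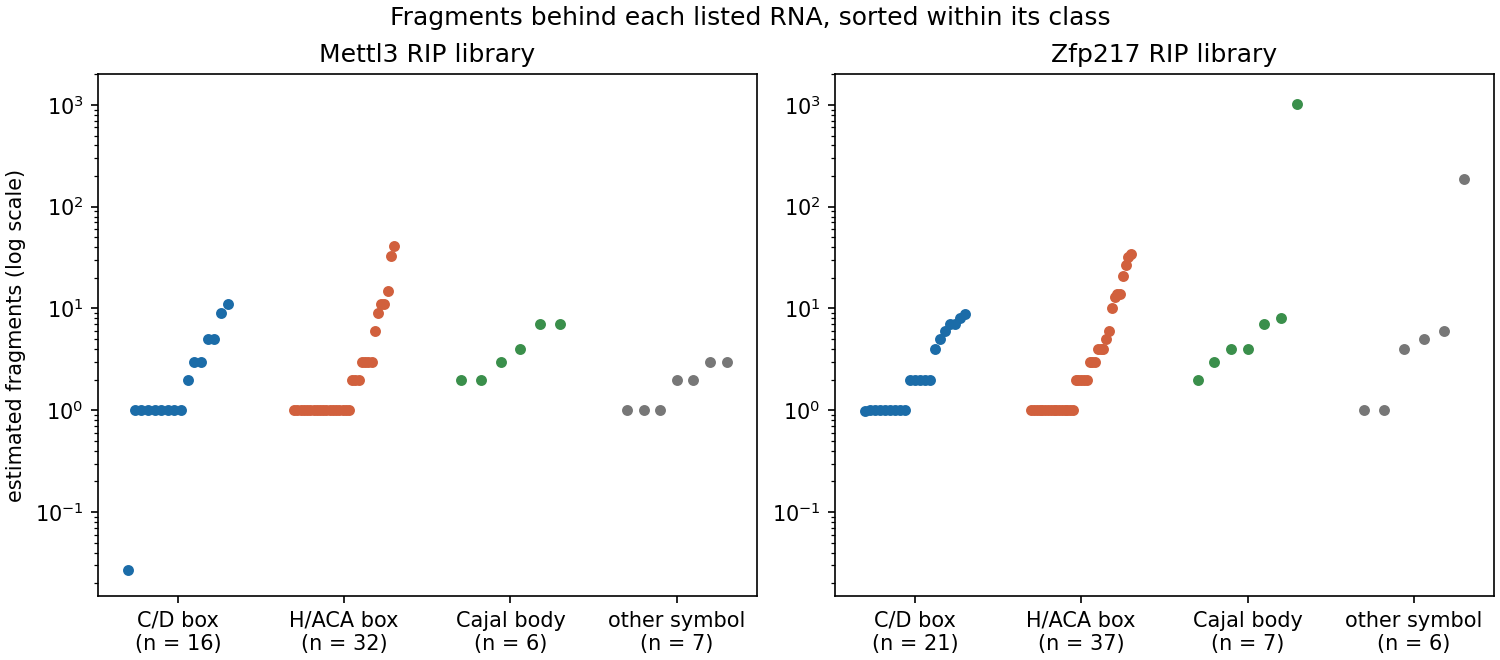
Estimated fragments behind each listed RNA (log scale), sorted within its class, in the Mettl3 RIP (left) and the Zfp217 RIP (right). The lowest step of points sits at 1 fragment in the C/D and H/ACA classes, the Cajal body RNAs begin at 2, and Scarna2 stands highest at about 1013 fragments; the lowest point is Snord45c.

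On a log2((RIP + 1)/(input + 1)) scale in FPKM, 58 of 62 members in the Mettl3 table exceeded the input by 2-fold or more. Over all listed transcripts with a mean of at least 1 FPKM the share was 51.1%. For Zfp217 it was 66 of 72 members against 49.1% of all such transcripts. By class the counts were 14 of 16 C/D, 31 of 33 H/ACA and 6 of 6 Cajal body RNAs for Mettl3, and 21 of 21, 34 of 38 and 6 of 7 for Zfp217. The median log2 differences for Mettl3 were 8.09, 3.55 and 4.30 in that order, and for Zfp217 they were 9.68, 4.16 and 4.32. These counts and medians moved with the input: it was listed at 0 FPKM for 51 of 62 members in the Mettl3 table (31.4% of all its transcripts) and for 54 of 73 in the Zfp217 table (38.9%). Each tested member at 0 passes the rule, and its log2 difference is set by the RIP FPKM alone. That level depends on length: 1 fragment on the 130 bases of SNORA55 gave 3.55, the H/ACA median for Mettl3. The medians therefore do not rank the classes by enrichment. Among members with an input above 0, 7 of 11 passed the rule for Mettl3 and 13 of 19 for Zfp217. Over all such transcripts with an input above 0 the shares were 40.3% and 33%. The 1 FPKM added to both values shrinks a ratio more at low levels, which holds these shares down. A Dkc1 transcript at 3.71 FPKM against 1.44 in the input for Mettl3, 2.57-fold, had a log2 of 0.947 and failed. The shares were not matched for level, so they do not establish an excess among members.

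A listed 0 in the input can be a count of 0 or an estimate that failed, so no fold is given for those members. If it is read as 0 fragments, the 95% counting interval of RIP over input lay above 1 for 5 of 61 members in the Mettl3 RIP, against 75.6% of all listed transcripts with a known length. In the Zfp217 RIP this was so for 8 of 71 members, against 65.6%. Both shares over all listed transcripts rest on fragment values extrapolated from short RNAs to longer transcripts. For the other members an enrichment was not detectable at this depth. Each member was listed because its RIP was at least 1.5 times its input, and the intervals take no account of this selection. A lower limit just above 1 therefore does not establish an enrichment. Among the 5 for Mettl3 were Snord35a, SNORA51, 1 copy of SNORA5 and 1 copy of SNORA70. Among the 8 for Zfp217 were SNORD12, SNORA26, SNORA84, SCARNA11, Scarna2, snoU2_19 and snoU90.

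**Figure D3:**
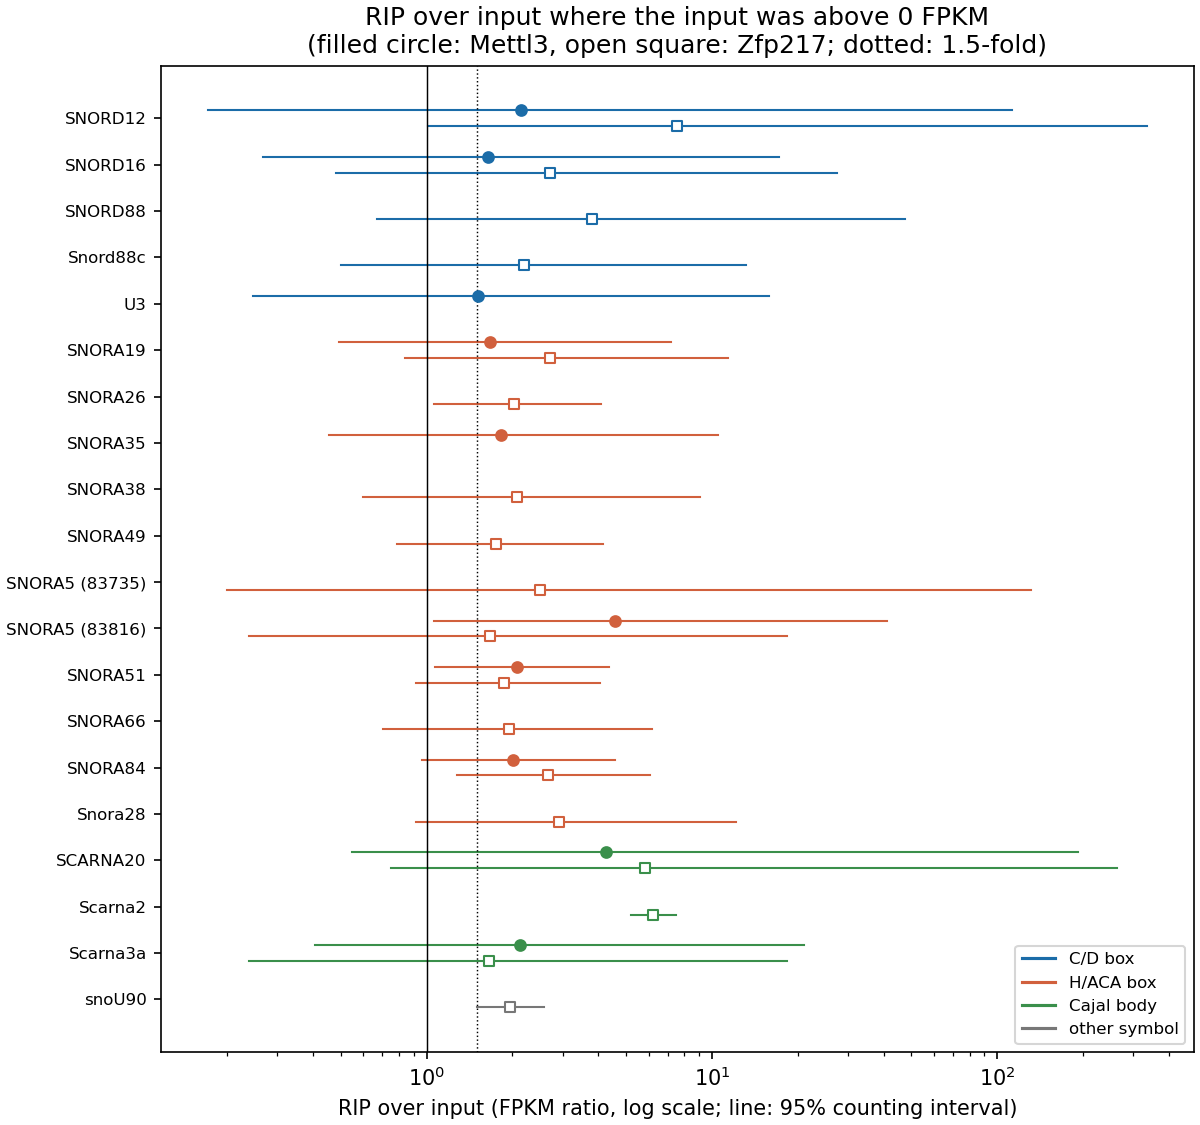
FPKM ratio of RIP over input (log scale) with its 95% counting interval for members whose input was above 0 (1 is not drawn), in the Mettl3 RIP (filled circles) and the Zfp217 RIP (open squares); the solid line marks a ratio of 1, the dotted line the 1.5-fold limit of the tables, and the digits after SNORA5 are the end of the transcript identifier. Most intervals cross 1, and Scarna2 and snoU90 have the shortest.

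Of the C/D box RNAs, 6 had a measured input. SNORD12 overlaps an annotated exon of the noncoding host gene Zfas1. It went from 257 FPKM (1 fragment) in the input to 549 (3) in the Mettl3 RIP, with an interval of 0.172 to 112. With the Zfp217 antibody it stood at 1957 FPKM (8 fragments), 7.54 times its input, with an interval of 1.01 to 334. SNORD16, in an intron of Rpl4, was at 438 FPKM (5 fragments) for Mettl3 and 731 (6) for Zfp217 against 2 input fragments, and both intervals held 1.

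Other C/D RNAs with a measured input were listed for 1 antibody. Snord88c and SNORD88 lie in one gene, 2410002F23Rik, and stood at 1602 FPKM (7 fragments) and 1322 FPKM (7.03) in the Zfp217 RIP. Their ratios were 2.19 and 3.80, and both intervals held 1. A copy of U3 on chromosome 1 was at 6.81 FPKM (4.97 fragments) in the Mettl3 RIP, 1.51 times its input. U3 copies, at 215 bases, were the longest C/D RNAs with an annotated length, and this level was far under that of 1 fragment on an RNA of 70 bases.

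Members at 0 in the input held the highest C/D levels. Snord35a, in an intron of Rpl13a, was listed at 1536 FPKM (9 fragments) in the Mettl3 RIP and 1145 FPKM (5) in the Zfp217 RIP. Read against 0 fragments, its Mettl3 interval began at 1.4 and its Zfp217 interval at 0.860. It was the C/D RNA with the most fragments among those without a measured input. In the Mettl3 RIP it was followed by SNORD24 at 1159 FPKM (2 fragments), SNORD45 at 978 (3), SNORD73 at 773 (1) and Snord49a at 700 (1). In the Zfp217 RIP the 3 listed copies of SNORD58, in introns of Rpl17, were at 7027, 4003 and 2001 FPKM, which is 4, 2 and 1 fragments. Snord64 was at 3107 FPKM (2 fragments) and SNORD73 at 1997 (2). The highest value of the whole set thus rested on 4 fragments. Snord45c was at 9.42 FPKM in the Mettl3 RIP, or 0.0268 of a fragment, where it overlaps an exon of Rabggtb.

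Apart from Scarna2 and snoU90, the members with the most fragments were H/ACA box RNAs. SNORA51 overlaps an annotated exon of Nop56, which encodes a core protein of the C/D box particle. It went from 183 FPKM (12 fragments) in the input to 381 (41) in the Mettl3 RIP, a ratio of 2.08 with an interval of 1.07 to 4.35. For Zfp217 it was at 347 FPKM (27 fragments), and the interval of 0.918 to 4.06 held 1. SNORA84, on chromosome 16 outside any host gene, had 10 input fragments (153 FPKM) and stood at 307 FPKM (33) for Mettl3 with an interval of 0.967 to 4.57. For Zfp217 it was at 411 FPKM (32 fragments), 2.66 times its input, with an interval of 1.28 to 6.08. The calls for SNORA51 and SNORA84 thus differed by antibody, but the ratio between the RIPs was 1.10 (0.660 to 1.86) for SNORA51 and 0.746 (0.445 to 1.25) for SNORA84. Neither differed between antibodies beyond counting error.

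SNORA26, in an intron of the proteasome subunit gene Psmd1, was listed only for Zfp217. It went from 388 FPKM (14.0 fragments) to 787 (34.0), a ratio of 2.03 with an interval of 1.06 to 4.09. A SNORA5 copy in an intron of Eif2ak3 went from 26.7 FPKM (2 fragments) to 122 (15) for Mettl3, a ratio of 4.57 with an interval of 1.06 to 41.2. For Zfp217 this copy was at 44.9 FPKM (4 fragments), and its interval held 1. Snora28 overlaps an annotated exon of the translation factor gene Eif5. It was at 243 FPKM (14 fragments) for Zfp217, 2.92 times its input, with an interval of 0.918 to 12.2.

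SNORA19, SNORA35, SNORA38, SNORA49, SNORA66 and the other SNORA5 copy had ratios between 1.67 and 2.71, and each interval held 1. SNORA19 was in both tables, with 11 fragments for Mettl3 (137 FPKM) and 13 for Zfp217 (226 FPKM) against 4 in the input. SNORA35 was listed for Mettl3 only, at 101 FPKM (9 fragments). SNORA49 (269 FPKM, about 21 fragments), SNORA66 (189 FPKM, 14) and SNORA38 (123 FPKM, 10) were listed for Zfp217 only. Of the H/ACA RNAs at 0 in the input, a SNORA70 copy in an intron of Ybx3 had the most fragments, 11 for Mettl3 (97.8 FPKM) and 4 for Zfp217 (49.1 FPKM). A SNORA36 copy in an intron of Tmf1 had 6 in each. Of the 27 H/ACA values with a length and an input of 0 in each table, 18 for Mettl3 and 16 for Zfp217 were 1 fragment.

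Cajal body RNAs were listed for both antibodies in 6 of 7 cases, and Scarna2 only for Zfp217. Scarna2 directs ribose methylation of U2 small nuclear RNA, is 414 bases long and has its own gene, outside any host. It went from 84.4 FPKM in the input to 524 in the Zfp217 RIP, a ratio of 6.22 with an interval of 5.19 to 7.48. This rested on about 137 input and 1013 RIP fragments, more than for any other member, and its length lies past the range in which the fragment value was checked. With an input of 84.4 FPKM, its absence from the Mettl3 table means a Mettl3 RIP under 1.5 times that input, if the 2 limits of the tables (over 1 FPKM and 1.5-fold) were the only ones.

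SCARNA20, in an intron of Bud23, had 7 fragments in each RIP and 1 in the input. It stood at 78.9 FPKM for Mettl3 and 109 for Zfp217 against 18.5 and 18.7 in the input, and both intervals held 1. Scarna3a, in an intron of the ubiquitin ligase gene Cop1, was at 48.4 FPKM (7 fragments) for Mettl3 and 38.1 (4) for Zfp217 against 2 input fragments. Both intervals again held 1. SCARNA11, in an intron of the chromatin remodeller gene Chd4, was at 0 in the input, 16.3 FPKM (2 fragments) for Mettl3 and 89.9 FPKM (8) for Zfp217. SCARNA21 had 3 fragments in each RIP (21.6 and 29.7 FPKM). SCARNA17 had 4 for Mettl3 (27.6 FPKM) and 2 for Zfp217 (19.04 FPKM).

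Scarna9 reached 1716 FPKM for Mettl3 and 4430 for Zfp217, the highest Cajal body values, on 2 and 4 fragments. It is annotated at 70 bases in an intron of Cep295, a centrosome protein gene. The snoU2_19 entry, 76 bases long, lies 130 bases away in the same gene and on the same strand. It was at 485 FPKM (1 fragment) for Mettl3 and 3778 FPKM (6) for Zfp217. Both pieces carry a C box and a D box pattern, as the capitals above show.

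The 9 members with other symbols were placed in no class. GENCODE M21 names AC102570.1 as Snord87 and CT010429.3 as Snord92, so they are C/D RNAs under a clone name. AC102570.1, in the noncoding host gene Snhg6, was at 421 FPKM (2 fragments) for Mettl3 and 1399 (5) for Zfp217. The entry snoU90, in an intron of Kpna4, has 343 bases and is a scaRNA in GENCODE. It went from 66.5 FPKM (79.7 fragments) in the input to 131 (187) in the Zfp217 RIP, a ratio of 1.96 with an interval of 1.502 to 2.58. As for Scarna2, its length lies past the checked range, and its fragments and interval rest on an extrapolated fragment value. It and Scarna2 were the longest members and had the most fragments.

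Of the 101 members, 34 were listed for both antibodies, 28 for Mettl3 only and 39 for Zfp217 only. The shared members were 54.8% of those of the Mettl3 table, where 42.4% of all transcripts were shared. They were 46.6% of those of the Zfp217 table, where 49.6% were. Both tables used the same input library, so the overlap is a description. By class, 9 of 29 C/D, 15 of 56 H/ACA and 6 of 7 Cajal body RNAs were in both. Members listed once were mostly single fragments: 18 of the 28 for Mettl3 only and 22 of the 39 for Zfp217 only had 1 fragment, all with an input of 0. If the 2 limits of the tables were the only ones, an unlisted member with an input of 0 had at most 1 FPKM in the other RIP. For 28 of the 39 members unlisted for Mettl3, and 26 of the 28 unlisted for Zfp217, the limits would then correspond to less than 1 fragment.

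Among the 34 shared members the Zfp217 RIP was higher in 24. It was at least 2-fold higher in 13, against 3.43% of all shared transcripts, and the Mettl3 RIP was at least 2-fold higher in 1, the SNORA5 copy in Eif2ak3, against 5.39%. The median log2 difference of Mettl3 over Zfp217 was -0.46 over the members, -0.74 for C/D, -0.44 for H/ACA and -0.46 for Cajal body RNAs. Equal fragments already put this difference below 0, since 1 fragment was worth more FPKM in the Zfp217 RIP. SNORA63, with 1 fragment in each RIP, stood at -0.436, and SCARNA20, with 7 in each, at -0.467. SNORA84 was higher for Zfp217 in FPKM on 32 fragments against 33. The 95% counting interval of the ratio lay below 1 for 1 member, SCARNA11 (0.181, 0.0187 to 0.908), and above 1 for 0 members. Of the 13, SNORD73, Snord49a and Snord100 each had 1 fragment for Mettl3 and 2 for Zfp217. In the pooled fragments of the 33 shared members with a length, the Mettl3 RIP held 196 and the Zfp217 RIP 185. Scaled to the estimated depth of each library, the Zfp217 sum was 1.32 times the Mettl3 sum (1.08 to 1.63). This interval held 1 in C/D (0.902 to 2.44), H/ACA (0.875 to 1.49) and Cajal body RNAs (0.884 to 2.81) taken alone. For the 4 shared members with other symbols, 8 fragments against 16, the ratio was 2.81 (1.13 to 7.58). Each shared member with a length had about 1 fragment or more in both RIPs, because it had to be listed in both tables. Scaling by depth then favours the shallower Zfp217 library, and the intervals take no account of this selection. An interval above 1 in these pooled ratios therefore does not establish a higher level for Zfp217. The same pooled ratio was not computed over all shared transcripts.

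**Figure D4:**
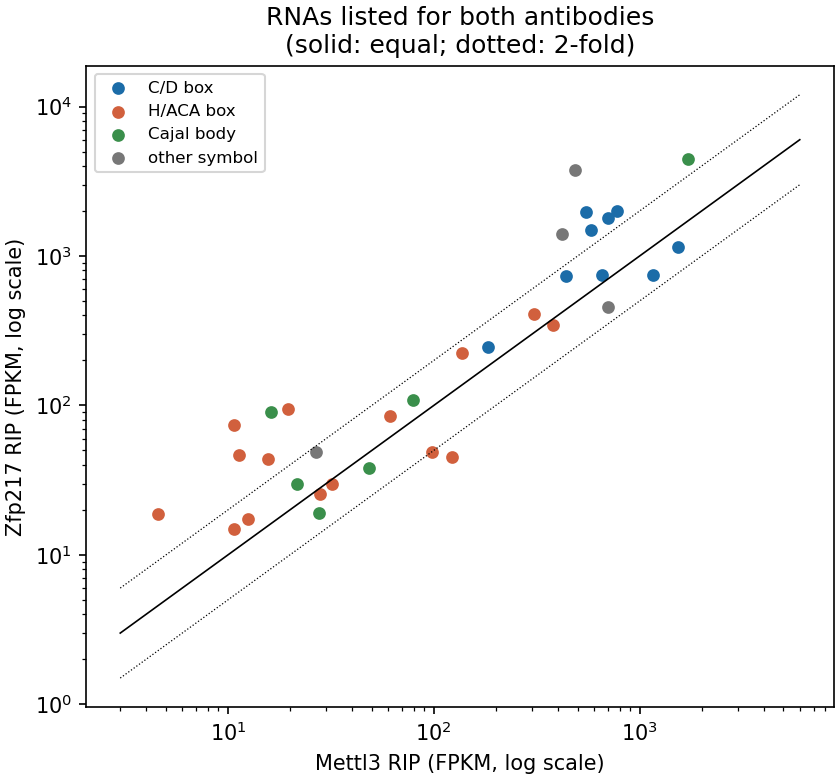
Level in the Zfp217 RIP against level in the Mettl3 RIP (FPKM, both log scales) for the 34 members listed for both antibodies, by class, with the solid line at equal levels and the dotted lines at 2-fold. There are 24 points above the solid line, and the C/D RNAs lie to the upper right, where 1 fragment is worth most. A point with equal fragments in both RIPs also lies above the solid line.

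In GENCODE M21, 80 of the 99 members with coordinates lay inside a host gene on the same strand (80.8%), against 44.7% of the 1558 annotated snoRNAs and scaRNAs. They lay wholly in an intron in 62 cases and overlapped an annotated exon in 18. The C/D RNAs overlapped an exon in 10 of 28 cases, the H/ACA RNAs in 6 of 55 and the Cajal body RNAs in 0 of 7. Fragments of such a member and of unspliced or exonic host RNA cannot be told apart in these tables. Among the members named above, SNORD12, SNORD88, Snord64, Snord100, SNORA51, SNORA49 and Snora28 overlapped an exon, as did Snord45c. A host transcript was itself listed for 28 of the 48 Mettl3 members with a host (58.3%) and for 33 of the 63 Zfp217 members (52.4%). Counted by gene, 25 of 48 host genes were listed for Mettl3 and 31 of 61 for Zfp217, noncoding hosts included. Of all annotated protein-coding genes, 25.9% were listed for Mettl3 and 21.98% for Zfp217. These shares also count genes without RNA in these cells, which cannot be listed, and were not matched to the hosts for expression.

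Hosts with high RIP levels are given beside their members. Eif5, host of Snora28, was at 33.7 FPKM for Mettl3 (1.92-fold), and was not listed for Zfp217, where Snora28 was. Nop56, host of SNORA51, was at 15.8 FPKM for Mettl3 (1.52-fold) against a member ratio of 2.08. For Zfp217, 6 Nop56 transcripts were listed, all with an input under 1 FPKM. A retained-intron transcript of Nop56 was at 2.71 FPKM for Mettl3 (10.9-fold) and 2.40 for Zfp217 (9.54-fold). Chd4, host of SCARNA11, was at 7.88 FPKM for Mettl3 (1.81-fold) and 15.6 FPKM for Zfp217 (3.55-fold), so host and member were both higher in the Zfp217 RIP. Mib1, host of a SNORA70 copy at 16.6 FPKM (1 fragment), was at 20.3 FPKM for Mettl3 (3.94-fold). Another Mib1 transcript was at 4.35 FPKM for Zfp217 (2.08-fold), where this SNORA70 copy was not listed. Rpl17, Rpl13a, Rpl4 and Snhg6 were in neither table although their members were.

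Some hosts held several members. 2410002F23Rik, at 13.9 FPKM for Mettl3 (6.76-fold) and 5.69 for Zfp217 (2.74-fold), held 3, of which Snord88a was listed for Mettl3 and Snord88c and SNORD88 for Zfp217. Rpl17 held the 3 SNORD58 copies. Rabggtb, Cep295, Zbed3 and 2410006H16Rik held 2 each. Members of one host share its transcript and are not independent observations.

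Listed transcripts, of any class, of genes for proteins that bind these RNAs were counted by gene. Some genes, such as Tgs1 and Gemin4, were listed only through transcripts not classed as protein coding. Of 12 proteins of the C/D box particle and its assembly, 5 were listed for Mettl3 and 4 for Zfp217, and of 9 of the H/ACA particle 5 and 4. Of 19 Cajal body proteins 10 and 8 were listed. Over all annotated protein-coding genes the listed shares were the 25.9% and 21.98% given above, again not matched for expression. The most abundant listed transcript was at least 2-fold higher in the RIP for 4, 4 and 6 of these for Mettl3 and 4, 3 and 4 for Zfp217. Over all listed symbols, taken the same way, the share was 52% for Mettl3 and 51.8% for Zfp217. Nhp2l1, which encodes the protein that first binds the C/D motif, was at 29.6 FPKM against 1.30 in the input for Mettl3 (22.7-fold). For Zfp217 it was at 19.8 against 1.32 (15.1-fold). Both values belong to a transcript of the class processed_transcript, which is not a protein-coding class. Naf1, an assembly factor of H/ACA particles, was at 14.6 FPKM for Mettl3 (3.08-fold). Dkc1, which encodes dyskerin, was listed through a retained-intron transcript at 3.71 FPKM (2.57-fold) for Mettl3 and 3.61 (2.48-fold) for Zfp217. Gemin7, a partner of the SMN complex found in Cajal bodies, was at 15.2 FPKM (1.66-fold) and 18.9 (2.04-fold). Coil, the coilin gene, was listed for Mettl3 only, through a retained-intron transcript at 1.18 FPKM with an input of 0.

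The C, D and ACA box patterns were counted by class. TGATGA was present in 18 of 28 C/D RNAs (64.3%), against 75.5% of annotated Snord transcripts and 1.95% of 3947 other short RNAs of 60 to 180 bases. CTGA stood within the last 12 bases of 25 of them (89.3%), against 3.34% of the other short RNAs. ACA stood within the last 6 bases of 39 of 55 H/ACA RNAs (70.9%), against 92.9% of annotated Snora transcripts and 8.23% of the other short RNAs. ANANNA and TGAG did not separate the classes. ANANNA occurred in 55 of 55 H/ACA RNAs, but also in 25 of 28 C/D RNAs and 73.5% of the other short RNAs. TGAG occurred in 4 of 7 Cajal body RNAs, in 23 of 28 C/D RNAs, in 19 of 55 H/ACA RNAs and in 33.4% of the other short RNAs. Patterns were searched on the transcript strand only and are letters in a sequence, not tested boxes.

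Most symbols are written in capitals, the form used for human genes. A total of 20 of the 101 members carried a mouse gene symbol, 12 of them C/D, 5 H/ACA and 3 Cajal body RNAs. Of the annotated mouse genes, 17 of 97 Snord, 5 of 40 Snora and 3 of 9 Scarna genes were listed for either antibody. The families with most listed copies were SNORA17 with 6 copies of annotated length, 64.2 to 76.8% identical to each other, and SNORA70 with 5, 56.9 to 69.1% identical. 5 of the SNORA17 copies were listed for Mettl3 and 1 for Zfp217, each on 1 fragment. All 5 SNORA70 copies were listed for Mettl3 and 2 for Zfp217. The 4 SNORA36 copies were 63.0 to 93.2% identical, and the 2 SNORA32 copies 99.2%, so a fragment of one could be counted for another. A further SNORA17 entry without an annotated length was at 19.5 FPKM for Mettl3 and 94.3 for Zfp217.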

How the data were processed

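RIP-seq libraries of CCE cells (Mettl3 RIP, Zfp217 RIP and input, 1 each, grouped by their titles) were analysed. The authors deposited 1 table per antibody with FPKM values of input and RIP for each Ensembl transcript, and the deposited log2 fold change of RIP over input, which was not used for any result. The submitters' processing notes name build mm9 and the tools Cuffdiff, Cufflinks, TopHat2 2.0.8, Bowtie2 and CASAVA 1.4. What each did, and with which settings, is not stated there. The lowest RIP value was 1.00 FPKM and the lowest fold 1.5 in either table. Strand handling is not stated, so reads of antisense genes may be included.

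The value of 1 fragment at each annotated length was estimated from the spacing of low FPKM values, and fragments are FPKM divided by it. Estimated depth was about 9891510 fragments in the Mettl3 RIP, 7045970 in the Zfp217 RIP and 6020380 in the input. Below 89 bases the input step was taken as a fixed multiple of the Mettl3 step. Ratio intervals are exact conditional 95% intervals (Clopper-Pearson), which take fragments as independent and cover counting error only. They do not allow for the 1.5-fold limit that a transcript had to pass to be listed. The fragment steps of the Mettl3 and Zfp217 RIP libraries were tested on simulated whole counts with a chosen spread of fragment lengths. The input step was not simulated. Python 3.11.15, pandas 2.3.3, scipy 1.17.1 and biopython 1.88 were used. The size rule was 2-fold on log2((RIP + 1)/(input + 1)), at a mean of at least 1 FPKM, with a pseudocount of 1 FPKM. Lengths, hosts and sequences came from GENCODE M21 (GRCm38), which matched 99 of 101 transcript identifiers; no coordinate of the authors' build was used. Classes follow the symbol prefix. The prepared class rule put snoU symbols with the C/D RNAs, and these were counted as other symbols instead, since they include H/ACA and Cajal body RNAs. Named members were each Cajal body RNA, the 6 C/D and the 6 H/ACA RNAs with the highest RIP FPKM per table, and up to 10 per class with both values at least 1 FPKM. Of shared members the 5 per class with the highest smaller RIP FPKM were included, and of proteins and hosts up to 6 per list. Members with a counting interval above 1, host clusters, copies, Snord45c and the named other symbols were added after their values were seen. Members and lists were chosen with earlier results of these data known. Other pseudocounts, filters, scalings, fold rules and name rules were tried. A member and its host gene are not reported here, though counts over the set include them.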

Additional observations from a re-analysis of the deposited data

How the results depend on the processing

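Of 21 alternatives run, 12 left the count within 1.5 times. The counts of members at least 2-fold above the input fell from 58 to 7 (Mettl3) and from 66 to 13 (Zfp217) when both values had to be at least 1 FPKM. They were again 7 and 13 without transcripts whose input was under 0.01 FPKM. Fewer members were then tested, and the share that passed also fell, from 58 of 62 to 7 of 11 and from 66 of 72 to 13 of 19. Each tested member at 0 in the input passes the rule. With only members named as mouse genes they were 11 of 11 and 15 of 16, and the members in both tables went from 34 of 101 to 7 of 20, since fewer members were counted. With a fold rule of 4, the shared members higher for Mettl3 went from 1 to 0 and those higher for Zfp217 from 13 to 4. That last count, and its alternatives, were added after seeing the data. Scaling the Zfp217 RIP by the median ratio of shared transcripts, 1.07, left both counts as they were. No paired analysis was possible because each group had 1 library, and for the same reason no library could be left out. Depth limits most values: at 1 to 3 fragments a ratio has no useful precision, and an RNA without fragments has no value.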
